A study of Mus musculus with 11 samples.

Results

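MHC class I antigen presentation was described through 9 genes of its pathway, H2-K1, H2-D1, B2m, Tap1, Tap2, Tapbp, Psmb8, Psmb9 and Psmb10. Every array probe whose gene name, older synonym or accession belonged to a member was taken, which gave 17 probes out of 41121, and 9 genes out of 27567 by name. The arrays were Agilent 1-colour arrays of mouse RNA. The KO-labelled group (5 arrays) was cardiac progenitor cells (mesoangioblasts, vessel-associated progenitors) from the ventricle, aorta or atrium of beta-sarcoglycan null mice, a model of limb-girdle muscular dystrophy. The WT-labelled group (3 arrays) was progenitors from the atrium, ventricle and aorta of wild-type mice. The control for muscle differentiation was C2C12 (3 arrays), a line of mouse myoblasts that fuse into fibres in culture. Age, strain, passage and state of differentiation are not given in the labels.

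Class I molecules show peptides from inside the cell to CD8 T cells. A polymorphic heavy chain (here H2-K1 or H2-D1) pairs with the invariant light chain B2m. Its peptides are cut by the proteasome, in which interferon exchanges the constitutive catalytic subunits for the immunoproteasome subunits Psmb8, Psmb9 and Psmb10, and are pumped into the endoplasmic reticulum by the Tap1-Tap2 transporter, to which tapasin (Tapbp) tethers the empty heavy chain. Interferon raises these genes through factors that include Irf1 and Nlrc5, and NF-kappaB raises the heavy chains and B2m.

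Values are log2 signals relative to the 75th percentile of each array, so a difference of 1 is a doubling, and levels were not compared between probes. Arrays lay on 3 slides. The KO-labelled ventricle and aorta of slide 1 and those of slide 3, and the C2C12 arrays of the same slides, differed by less than the noise between repeated spots (ratios 0.572, 0.678 and 0.609 over 8553 probes) and were averaged and counted as 1 sample each. This left 3 KO-labelled samples (ventricle, aorta, atrium), 3 WT-labelled samples (atrium, ventricle, aorta) and 2 C2C12 samples (slides 1 and 3, and slide 2). No slide held both genotypes. C2C12 was on every slide, and a fit with the slide as a block therefore sets KO-labelled samples against the first C2C12 sample and WT-labelled samples against the second. The labels do not say which samples came from separate mice or cultures, so p-values cover only the spread among the samples at hand, possibly a technical one, which for KO with WT lies between heart regions. Sgcb, the gene of beta-sarcoglycan, was 2.99, 2.34 and 2.64 in KO-labelled ventricle, aorta and atrium on its brighter probe, against 2.07, 2.20 and 1.82 in WT-labelled atrium, ventricle and aorta (difference 0.63, SE 0.21, adjusted p = 0.0728 over all probes). It was not lower in the group labelled KO. Where the probe lies relative to the deletion is not known, so the label could not be checked with it. The groups are therefore named by their labels.

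The starts of 8 of the 9 members were matched in RefSeq (build GRCm38.p6, 250 bases before to 50 after the start). Tap2 had no entry. The promoters of both heavy chains are shown because both match the kappaB consensus (in capitals), which NF-kappaB can bind, at the same letters on both strands and in 2 overlapping frames. The consensus was added to the search after the sequences had been seen. The match began at -111 from the H2-K1 start and at -171 from the H2-D1 start, and 8.49% of 32544 promoters in the table held the consensus on either strand. Over 239 aligned bases the sequences were 88.3% identical.
H2-K1, chr17:34000298-34000597, minus strand: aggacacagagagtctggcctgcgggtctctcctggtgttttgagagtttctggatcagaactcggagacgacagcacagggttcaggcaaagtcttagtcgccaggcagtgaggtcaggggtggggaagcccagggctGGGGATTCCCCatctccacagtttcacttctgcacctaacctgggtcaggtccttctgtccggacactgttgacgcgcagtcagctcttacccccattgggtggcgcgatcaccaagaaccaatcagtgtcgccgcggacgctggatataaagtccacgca
H2-D1, chr17:35262844-35263143, plus strand: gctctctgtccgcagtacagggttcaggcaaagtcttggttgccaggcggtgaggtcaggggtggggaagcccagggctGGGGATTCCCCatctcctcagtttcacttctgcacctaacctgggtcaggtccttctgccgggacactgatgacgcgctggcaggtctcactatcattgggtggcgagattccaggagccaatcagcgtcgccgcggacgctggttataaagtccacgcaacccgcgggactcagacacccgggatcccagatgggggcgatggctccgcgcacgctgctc

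The B2m promoter is shown because it holds 2 of the motifs (in capitals). The first is ISRE-like (GAAA, any 2 bases, GAAA), a form read by interferon regulatory factors, at -139 from the start, and 3.45% of all promoters in the table held it. The second is a match to the kappaB consensus on the minus strand, at -126. Among the 8 members searched, B2m was the 1 with the ISRE-like motif in this exact form.
B2m, chr2:122147437-122147736, plus strand: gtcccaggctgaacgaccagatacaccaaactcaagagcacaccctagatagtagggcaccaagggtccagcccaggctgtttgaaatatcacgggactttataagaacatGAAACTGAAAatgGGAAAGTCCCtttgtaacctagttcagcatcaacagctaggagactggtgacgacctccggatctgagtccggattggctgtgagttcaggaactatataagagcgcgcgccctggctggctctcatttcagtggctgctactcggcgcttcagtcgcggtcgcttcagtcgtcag

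Tap1 and Psmb9 lie head to head, and their promoter windows share 275 bases, so the Tap1 window below also covers most of the Psmb9 window (chr17:34187281-34187580, minus strand). None of the 3 motifs searched, including the GAS-like one (TTC and GAA separated by 3 bases), was found there on either strand, and the sequence is shown because both genes had the lowest KO-labelled values relative to WT-labelled ones. The GAS-like motif was found at -97 from the start of Psmb8, and 8.33% of promoters held it. No motif was found in Tapbp or Psmb10. A match describes letters in this window and not binding. The search took exact forms only, so a promoter without a match can still hold a variant of the element, also those of H2-K1 and H2-D1.
Tap1, chr17:34187306-34187605, plus strand: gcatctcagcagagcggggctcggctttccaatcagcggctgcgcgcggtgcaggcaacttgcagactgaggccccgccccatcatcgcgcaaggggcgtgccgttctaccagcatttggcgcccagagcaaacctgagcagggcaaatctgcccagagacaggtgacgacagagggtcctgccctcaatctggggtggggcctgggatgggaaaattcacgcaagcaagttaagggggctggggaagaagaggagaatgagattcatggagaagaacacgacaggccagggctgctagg

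In KO-labelled progenitors, 5 of the 9 members were lower than in WT-labelled progenitors (H2-K1, B2m, Tap1, Tap2 and Psmb9) and 1 was higher (H2-D1), each by its brightest probe. Tapbp and Psmb10 did not pass the test, and Psmb8 was not tested because it was not well above background on any heart array. The test was limma's moderated test on 3 against 3 samples, with Benjamini-Hochberg adjustment over 15002 genes and a threshold of 0.05. In the same test 29.8% of all genes passed, 13.7% higher and 16.1% lower. Tap1 and Psmb9 entered the test only through their WT-labelled arrays. With the slide as a block, 2 of 9 members (Tap1 and Psmb9) passed, both lower, beside 5.64% of 15807 genes, 3.22% higher and 2.42% lower. The median difference of the 8 tested members was -1.72, with Tap1 and Psmb9 at their measured values or at their bounds, beside -0.06 over all genes. These are RNA levels of whole cultures, in which fewer cells of a type and less RNA per cell cannot be told apart.

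**Figure D1:**
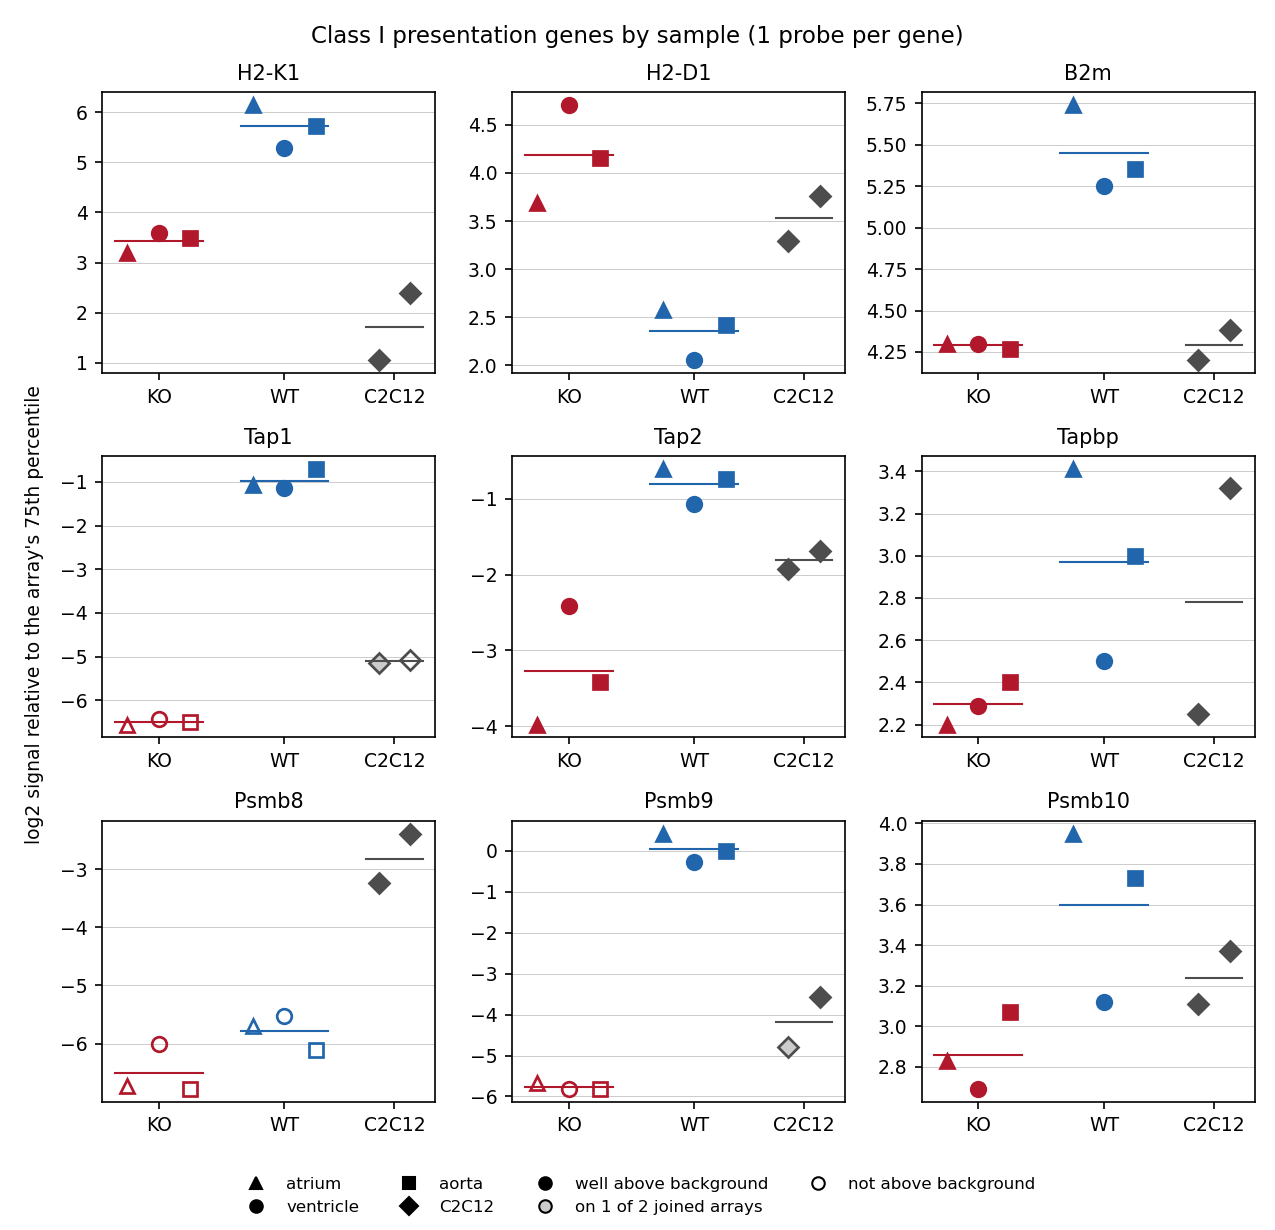
Log2 signal relative to the 75th percentile of the array for the brightest probe of each member, in KO-labelled, WT-labelled and C2C12 samples. Lines are group means, open symbols are samples not well above background, and grey symbols are joined samples above background on 1 of 2 arrays. WT-labelled samples lie above all KO-labelled samples for every gene drawn except H2-D1, which is the other way round, and Psmb8, which was above background in C2C12 alone. Among all genes tested, 49.3% had KO-labelled and WT-labelled groups that did not overlap.

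The heavy chain H2-K1, a classical class I molecule found on nearly all nucleated cells, was read by 4 probes on mm8 chromosome 17, minus strand. Probe 1 (33606564 to 33606623) read 3.59, 3.50 and 3.20 in KO-labelled ventricle, aorta and atrium, against 6.15, 5.28 and 5.72 in WT-labelled atrium, ventricle and aorta. The groups did not overlap, which was true of 49.3% of all genes tested, and the KO-labelled values lay close together. Means were 3.43 ± 0.21 in KO-labelled and 5.72 ± 0.43 in WT-labelled samples (SD, n = 3 each), a difference of -2.29 (SE 0.25, adjusted p = 0.00154). It was -1.69 in ventricle, -2.22 in aorta and -2.95 in atrium. With the slide as a block it was -0.95 (SE 0.51, adjusted p = 0.389), since C2C12 itself read 1.05 on slides 1 and 3 and 2.39 on slide 2.

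Probes of H2-K1 did not move together. Probe 2 (33606572 to 33606626) shares 52 bases with probe 1 and gave the same direction, with 2.23, 2.13 and 1.78 in KO-labelled against 5.01, 4.10 and 4.59 in WT-labelled samples (difference -2.52, adjusted p = 0.00126 over 22672 probes, and -1.0 with the slide as a block, adjusted p = 0.385). Probe 4 (33609797 to 33609856) went the opposite way. It read 2.53, 2.03 and 1.56 in KO-labelled ventricle, aorta and atrium and 0.43, -0.47 and 0.06 in WT-labelled atrium, ventricle and aorta, without overlap. The difference was 2.03 (SE 0.33, adjusted p = 0.00654), and with the slide as a block 2.65 (adjusted p = 0.0872). Probe 3, which maps over 247 bases (33609987 to 33610233), overlapped between the groups, with a difference of -0.07 (SE 0.27, adjusted p = 0.865). The mean of the 4 probes gave -0.71 for H2-K1 (adjusted p = 0.0980), so the call rests on the choice of probe. Over every probe, 10 of 15 member probes tested passed in KO against WT, beside 29% of 22672 probes. Of these 2 were higher and 8 lower in KO-labelled samples, beside 13.3% and 15.8% of all probes.

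H2-D1, the second classical heavy chain, had 2 probes on chromosome 17, plus strand. Probe 1 (34874240 to 34874299) read 4.71, 4.16 and 3.69 in KO-labelled ventricle, aorta and atrium, against 2.57, 2.05 and 2.42 in WT-labelled atrium, ventricle and aorta. Every KO-labelled sample lay above every WT-labelled one. The difference was 1.84 (SE 0.29, adjusted p = 0.00610), and 2.31 with the slide as a block (SE 0.59, adjusted p = 0.0914). Probe 2 (34874545 to 34874777) overlapped, at 3.74, 3.14 and 2.70 in KO-labelled and 3.80, 2.79 and 3.22 in WT-labelled samples, with a difference of -0.07 (SE 0.36, adjusted p = 0.896). The mean of both probes gave 0.88 (adjusted p = 0.0880), again not past the threshold. Class I genes differ between mouse strains and have near-identical copies, so a probe can read an allele or a copy unequally. The labels give no strain, the match of these probes to the haplotype of the cells was not tested, and the direction of both heavy chains is therefore uncertain.

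**Figure D2:**
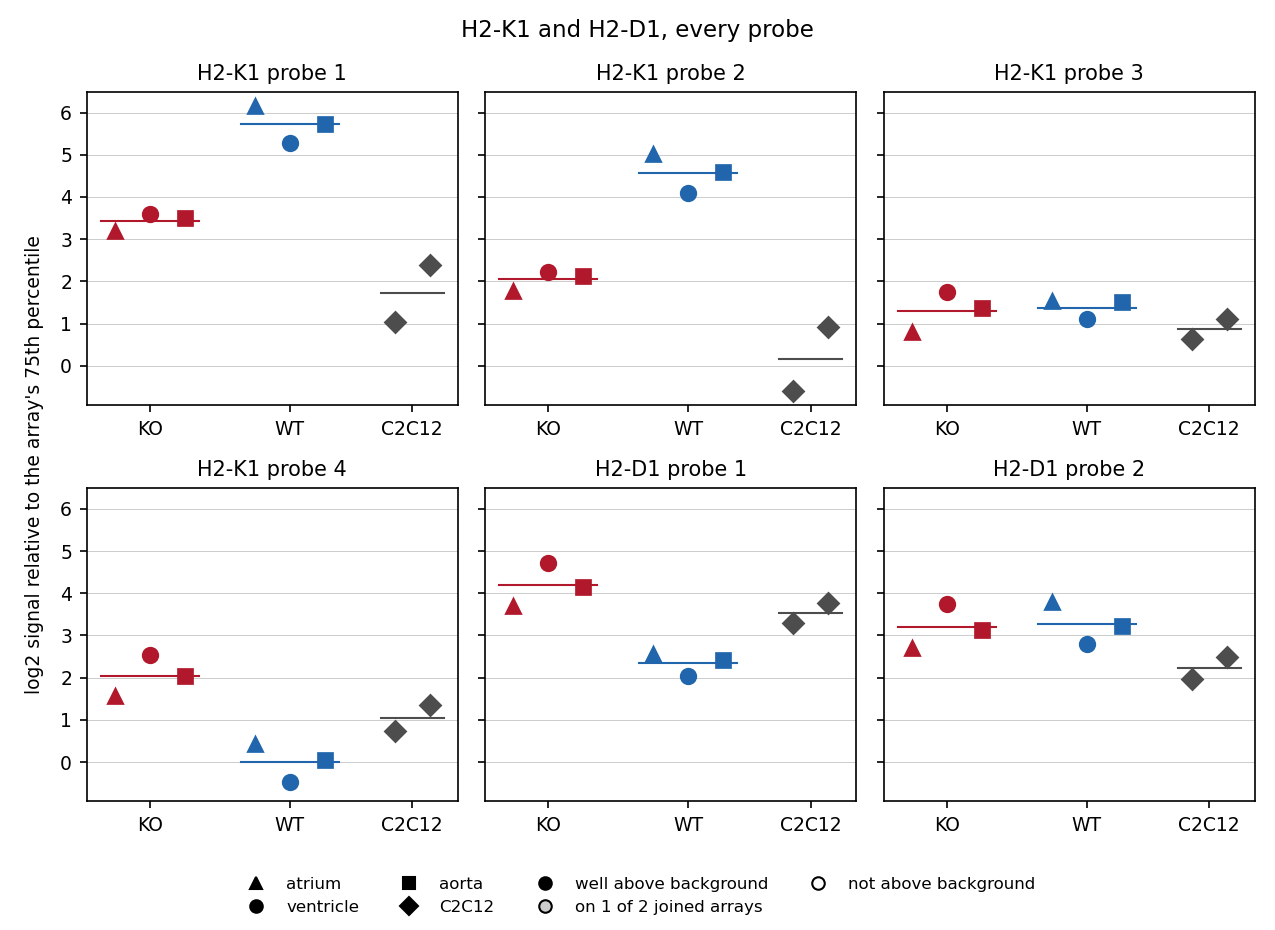
Log2 signal relative to the array's 75th percentile for the 4 probes of H2-K1 and the 2 probes of H2-D1, by sample, with lines at the group means. H2-K1 probes 1 and 2 are lower in KO-labelled than in WT-labelled samples, H2-K1 probe 4 and H2-D1 probe 1 are higher, and H2-K1 probe 3 and H2-D1 probe 2 overlap.

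B2m, the light chain needed by every class I molecule to reach the surface, lies on chromosome 2 and is not one of the polymorphic heavy chains. Probe 1 (mm8 121844106 to 121844165) read 4.30, 4.27 and 4.30 in KO-labelled ventricle, aorta and atrium, against 5.74, 5.25 and 5.35 in WT-labelled atrium, ventricle and aorta. The KO-labelled values were nearly equal and all lay below the WT-labelled ones. The difference was -1.16 (SE 0.17, adjusted p = 0.00429), and -0.98 with the slide as a block (SE 0.34, adjusted p = 0.183). Probe 2 (121844230 to 121844286) gave -1.14 (adjusted p = 0.00397). Probe 3 (121840304 to 121840363) read -3.25, -2.89 and -3.59 in KO-labelled and -1.43, -1.54 and -1.88 in WT-labelled samples. Its difference of -1.62 passed without the block (adjusted p = 0.00385) and was -3.16 with it (adjusted p = 0.0172). All 3 probes of B2m had non-overlapping groups in the same direction, on the same samples. Groups did not overlap for 49.3% of all genes tested.

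Tap1, the first subunit of the peptide pump, was well above background on 0 of 5 KO-labelled arrays and on 3 of 3 WT-labelled arrays. Its probe (mm8 chromosome 17, 33804121 to 33804180) read -1.08, -1.15 and -0.71 in WT-labelled atrium, ventricle and aorta. KO-labelled samples were at least 15.8-fold lower (measured means -6.50 and -0.98, adjusted p = 1.7e-05). That bound sets the WT-labelled mean against the lowest signal that was well above background on each KO-labelled array, or the probe's own where higher. The test also passed with the slide as a block (adjusted p = 0.00150).

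Tap2, the other subunit of the pump, was above background on every array. Its probe maps over 588 bases (33825052 to 33825639) and read -2.41, -3.42 and -3.98 in KO-labelled ventricle, aorta and atrium, against -0.61, -1.07 and -0.74 in WT-labelled atrium, ventricle and aorta. The KO-labelled samples spread more (SD 0.80) than the WT-labelled ones (SD 0.23) and did not reach them. The difference was -2.46 (SE 0.41, adjusted p = 0.00685), and -2.22 with the slide as a block (SE 0.81, adjusted p = 0.206).

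Tapbp encodes tapasin, which holds the heavy chain at the pump while peptides are exchanged. Probe 1 (33539531 to 33539590) read 2.29, 2.4 and 2.20 in KO-labelled ventricle, aorta and atrium and 3.41, 2.5 and 3.0 in WT-labelled atrium, ventricle and aorta. The groups did not overlap, but the difference of -0.67 (SE 0.25, adjusted p = 0.0915) did not pass. It was 0.40 with the slide as a block (SE 0.50, adjusted p = 0.749), and -0.91 without the WT-labelled ventricle, where it passed (adjusted p = 0.0331). Probe 2 (33536605 to 33536664) overlapped, at -0.34 (SE 0.19, adjusted p = 0.238).

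Among the immunoproteasome subunits, which change the cuts the proteasome makes, Psmb9 showed the widest gap. It was above background on 0 of 5 KO-labelled arrays and read 0.42, -0.28 and -0.01 in WT-labelled atrium, ventricle and aorta (probe at 33792517 to 33792576, minus strand). KO-labelled samples were at least 32.0-fold lower (measured means -5.77 and 0.04, adjusted p = 2.66e-05, and 0.00336 with the slide as a block). Psmb10, on chromosome 8 (108824906 to 108824965), read 2.69, 3.07 and 2.83 in KO-labelled and 3.95, 3.12 and 3.73 in WT-labelled samples. These did not overlap, but the WT-labelled ventricle lay only just above the highest KO-labelled value. The difference of -0.74 (SE 0.25) did not pass (adjusted p = 0.0707), and passed without the WT-labelled ventricle (-0.98, adjusted p = 0.0264). Psmb8 was at background on all 8 heart arrays with both of its probes (33811038 to 33811097 and 33811095 to 33811419), so no difference between KO-labelled and WT-labelled samples could be measured.

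**Figure D3:**
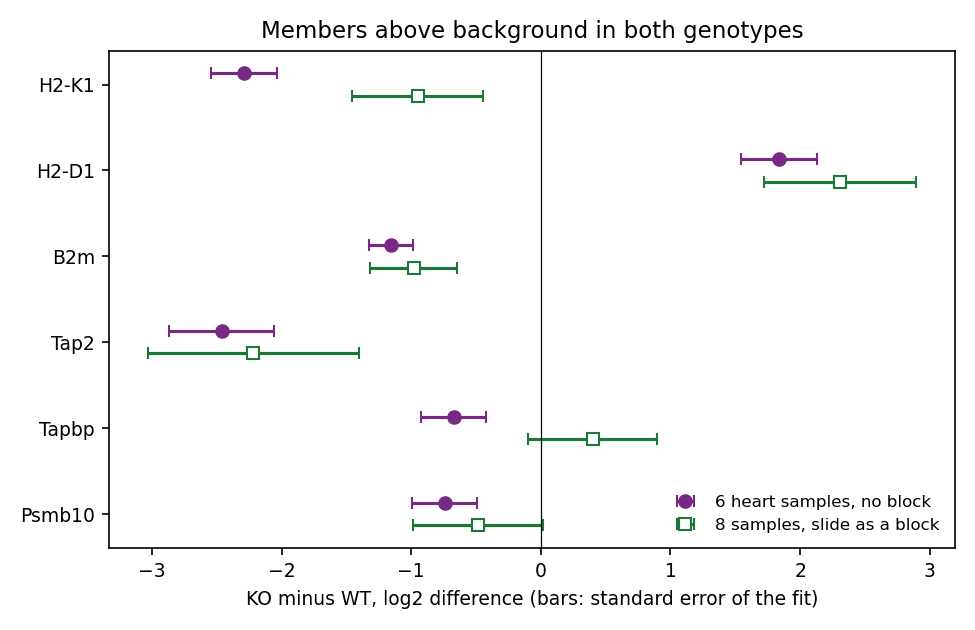
KO minus WT log2 differences (points) with the standard error of the fit (bars) for the 6 members measured above background in both genotypes, from the 6 heart samples (filled) and from 8 samples with the slide as a block (open). The block widens every error, moves H2-K1 closer to 0 and puts Tapbp on the other side of 0.

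C2C12 gave a second reference for both genotypes. These comparisons share samples with the one above and with each other, and used 1 fit over all 8 samples and 15807 genes. In KO-labelled progenitors 2 of 9 members passed against C2C12, both lower (Tap1 and Psmb8), beside 1.25% of all genes, 0.588% lower. Both were above background on 0 of 5 KO-labelled arrays. Tap1 (1 of 3 C2C12 arrays) and Psmb9 (2 of 3) entered this fit only with the WT-labelled arrays, and Psmb8 only through the C2C12 arrays. In WT-labelled progenitors 6 of 9 passed, 4 higher (H2-K1, B2m, Tap1 and Psmb9) and 2 lower (H2-D1 and Psmb8), beside 27% of all genes, 13.8% higher and 13.2% lower. Over every probe, 3 of 17 member probes passed for KO-labelled samples, beside 1.01% of 23894 probes, with 0 higher (0.523% of all probes) and 3 lower (0.485%). These 3 were the probes of Tap1 and Psmb8. For WT-labelled samples 10 of 17 passed, beside 26.5%, with 7 higher (13.9%) and 3 lower (12.7%).

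For B2m, KO-labelled samples averaged 4.29 ± 0.02 (SD, n = 3) and C2C12 4.29 ± 0.12 (SD, n = 2), with 4.2 and 4.38 in its samples. The difference was 0.00 (SE 0.18, adjusted p = 1.00), while WT-labelled samples were 1.16 higher than C2C12 (SE 0.18, adjusted p = 0.00351). H2-K1 probe 1 ran in the order WT-labelled, KO-labelled, C2C12. WT-labelled samples stood 4.0 above C2C12 (SE 0.42, adjusted p = 0.000611), and KO-labelled samples 1.71 above it (SE 0.42), which did not pass (adjusted p = 0.138). H2-D1 probe 1 was lowest in WT-labelled samples, 1.18 below C2C12 (difference -1.18, adjusted p = 0.0346, which passed under 6 of 14 alternatives). KO-labelled samples were 0.66 above C2C12 (SE 0.32, adjusted p = 0.479), and their values overlapped. Other probes did not all give these directions. For H2-K1, WT-labelled samples minus C2C12 gave 4.39 by probe 2, 0.50 by probe 3 and -1.03 by probe 4. By probe 2 of H2-D1 it was 1.03. Over every probe, H2-K1 probe 2 passed (adjusted p = 0.00059), and H2-K1 probes 3 and 4 and H2-D1 probe 2 did not (0.270, 0.0845 and 0.0960).

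Tap1 was above background on 0 of 5 KO-labelled and 1 of 3 C2C12 arrays. The C2C12 mean (-5.11) lay below the bound for KO-labelled samples, so no fold was given. WT-labelled samples were higher than C2C12 in the test (difference 4.13, adjusted p = 1.16e-05). The test put KO-labelled samples lower (adjusted p = 0.0168, passing under 6 of 13 alternatives). That call compares values near background and does not show a lower level. Psmb9 was above background on 2 of 3 C2C12 arrays, where its samples read -4.79 and -3.57. WT-labelled samples were higher (difference 4.23, adjusted p = 0.000249), and KO-labelled samples did not pass (adjusted p = 0.118). For Tap2, C2C12 read -1.93 and -1.69, between the genotypes. Neither KO-labelled samples (difference -1.46, SE 0.42, adjusted p = 0.214) nor WT-labelled samples (1.01, SE 0.42, adjusted p = 0.126) passed against it.

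Psmb8 was the member seen in C2C12 alone, above background on 3 of 3 arrays, and it entered the test only through them. Probe 1 read -3.24 and -2.39 in the C2C12 samples. KO-labelled samples were at least 4.42-fold lower (adjusted p = 0.00638, 0.0542 with the slide as a block and 0.431 with normexp background) and WT-labelled samples at least 4.19-fold lower (adjusted p = 0.00105). Probe 2 gave at least 5.18-fold for KO-labelled and 5.04-fold for WT-labelled samples. Tapbp and Psmb10 did not pass in either comparison, with differences of -0.49 and -0.38 for KO-labelled and of 0.19 and 0.36 for WT-labelled samples.

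The C2C12 samples themselves were set side by side, with no test. C2C12 on slide 2 minus C2C12 on slides 1 and 3 was 1.34 for H2-K1 probe 1, 1.51 for its probe 2, 1.22 for Psmb9, 1.07 for Tapbp probe 1 and 0.84 for Psmb8 probe 1. Across 15807 genes, 2.5% lay below -1.29 and 2.5% above 0.90, with a median of 0.02. B2m probes 1 and 2 differed by 0.17 and 0.15, and B2m probe 3 by -1.54. Tap1 differed by 0.09, Tap2 by 0.25, Psmb10 by 0.26 and H2-D1 probe 1 by 0.47. Of the 17 member probes, 5 lay outside that range (H2-K1 probes 1 and 2, Psmb9, Tapbp probe 1 and B2m probe 3). Slide 2 was the one that held the WT-labelled samples, and the part of this gap in the comparison of genotypes was not tested apart from the block given above.

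Heart region was compared with genotype in the model, at 2 samples a region. None of 15002 genes passed in any of the 3 contrasts by limma (1145, 676 and 440 had an unadjusted p under 0.05 for atrium minus ventricle, atrium minus aorta and ventricle minus aorta, and 50, 65 and 72 passed with every array as a sample). Among the 8 members tested, 0 had an unadjusted p under 0.05, and their differences ran from -0.56 to 0.49. Among member probes, the order of the regions nevertheless differed between the genotypes. Of 13 member probes above background on all heart arrays, 12 were highest in atrium and lowest in ventricle among WT-labelled samples. Among KO-labelled samples 0 had that order, and 8 were highest in ventricle and lowest in atrium. With 1 sample per region and genotype, and probes that share samples, this has no test, and each region had its own array position. How many of all probes had these orders was not counted. Over 8553 probes, WT-labelled atrium differed from ventricle and aorta with an SD of 0.515 and 0.496, against 0.191 between ventricle and aorta. In KO-labelled arrays (slide 1 for ventricle and aorta) ventricle differed from atrium and aorta with 0.274 and 0.243, against 0.169 between aorta and atrium.

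The other genes of the pathway were taken as lists. Among other class I heavy chains, 9 of 14 on the array were tested in KO against WT, of which 0 rose and 3 fell. H2-Bl read -3.15, -3.74 and -4.07 in KO-labelled ventricle, aorta and atrium and -0.31, -1.16 and -0.56 in WT-labelled atrium, ventricle and aorta (difference -2.98, SE 0.32, adjusted p = 0.00139). H2-T22 differed by -1.70 (adjusted p = 0.00136) and H2-T10 by -1.50 (adjusted p = 0.00133), both non-classical class I genes bound by gamma-delta T cells. With the slide as a block 0 of 10 other heavy chains passed (adjusted p = 0.125 for H2-Bl, 0.140 for H2-T22 and 0.124 for H2-T10). The list's median was -0.75, beside -0.06 over all genes, and -0.21 with the block, and the probes may read near-identical copies. Among class I related molecules, 0 of 5 tested rose and 2 fell. Procr, the endothelial protein C receptor with a class I fold, differed by -2.63 (adjusted p = 0.00415). Cd1d1, which shows lipids to NKT cells, differed by -3.91 (adjusted p = 0.00973) and was above background on 3 of 5 KO-labelled arrays. Both calls were lost with the slide as a block, at -1.80 for Procr (adjusted p = 0.266) and -2.44 for Cd1d1 (adjusted p = 0.440).

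The rest of the antigen-processing machinery was read through further lists. In the list of loading complex and peptide trimming, which holds the chaperones calreticulin and calnexin and the aminopeptidase Erap1, 0 of 15 passed and the median was -0.02. The constitutive catalytic subunits that Psmb8, Psmb9 and Psmb10 replace did not pass, at 0.01 for Psmb5 (SE 0.16), 0.02 for Psmb6 (SE 0.16) and -0.06 for Psmb7 (SE 0.24). Of 12 other 20S core subunits, Psmb2 rose by 0.79 (adjusted p = 0.0344) and Psmb1 fell by 0.55 (adjusted p = 0.0368). Of 17 subunits of the 19S cap, 0 passed. Of 4 proteasome activators 2 fell, the interferon-inducible PA28 subunits Psme1 (-0.66, SE 0.14, adjusted p = 0.0167) and Psme2 (-0.54, SE 0.14, adjusted p = 0.0316). With the slide as a block none of these proteasome genes passed, with Psme1 at 0.00 and Psme2 at -0.11.

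Of 16 transcriptional regulators of class I tested, 1 rose and 5 fell, with a median of -0.30. Irf9, a DNA-binding factor of the type I interferon response, differed by -2.79 (adjusted p = 0.000897) and also passed with the slide as a block (adjusted p = 0.0302). Stat2, a signal carrier of type I interferon, differed by -1.92 (adjusted p = 0.0124). Irf7, an amplifier of interferon transcription, differed by -3.30 (adjusted p = 0.0118). It was above background on 1 of 5 KO-labelled arrays and entered the test only through the WT-labelled arrays. Irf9 was the 1 regulator of 16 that passed with the block (adjusted p = 0.352 for Stat2 and 0.202 for Irf7). Rela, an NF-kappaB subunit, differed by -0.45 and Creb1 by 0.59. Irf1 overlapped between the groups, at -0.26 (SE 0.29, adjusted p = 0.545), and Nlrc5 was not analysed here. Of 10 interferon receptor and signalling genes tested, Tyk2 rose by 0.68 and Jak1, Jak2 and Socs3 fell by 1.01, 0.74 and 0.71. The receptor chains Ifnar1, Ifnar2, Ifngr1 and Ifngr2 did not pass, and with the slide as a block 0 of the 10 did.

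**Figure D4:**
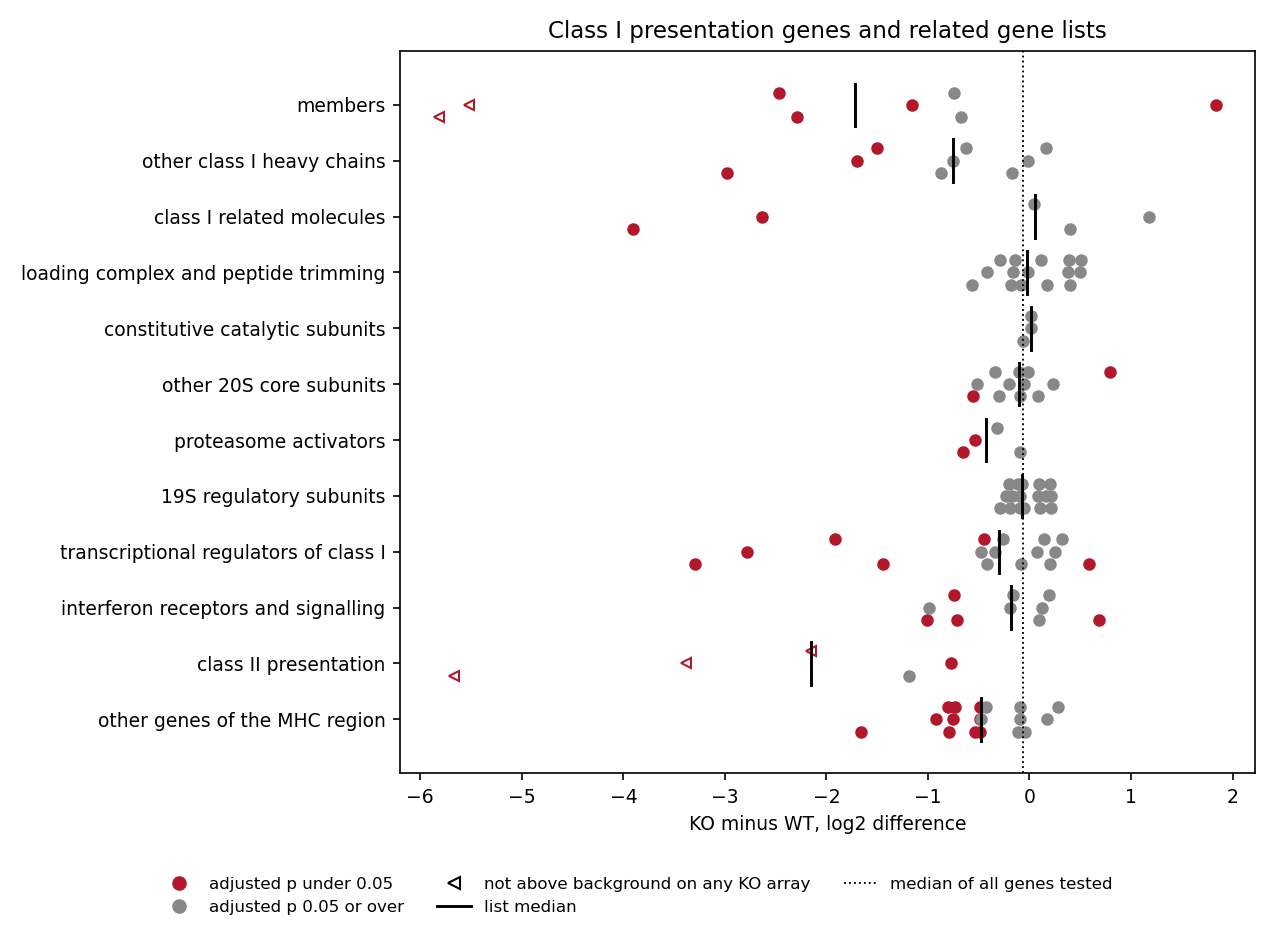
KO minus WT log2 difference of every tested gene in the members and in 11 lists, 1 point a gene, with the list median (bar) and the median of all genes (dotted line). Triangles are genes not above background on any KO-labelled array, drawn at their measured difference. The medians run from -2.15 (class II presentation) and -1.72 (members) to 0.05, and those of the loading, constitutive catalytic and 19S lists lie between -0.07 and 0.02.

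The neighbourhood of the members on chromosome 17 was read through lists of class II and other genes. In RefSeq order the class II chaperone gene H2-DMb1 is followed by Psmb9, Tap1, Psmb8, Tap2 and H2-Ob. Of 12 class II genes 5 were tested, of which 0 rose and 4 fell. H2-DMb2, H2-DMb1 and H2-Ab1 were above background on 0 of 5 KO-labelled and 3 of 3 WT-labelled arrays, so 3 of the 4 calls concern genes that entered the test only through the WT-labelled arrays. As bounds, KO-labelled samples were at least 13.9-fold lower for H2-DMb2, 2.24-fold for H2-DMb1 and 2.05-fold for H2-Ab1. H2-DMa, above background in both genotypes, differed by -0.77 (adjusted p = 0.0212, and 0.222 with the slide as a block, where 2 of 5 class II genes, H2-DMb2 and H2-DMb1, passed). The list's median was -2.15, or -1.16 with the 3 dim genes at their bounds. Among other genes of the MHC region, which have many functions outside immunity, 0 of 18 rose and 10 fell, with a median of -0.48, and with the slide as a block 0 of 19 passed. The 4 furthest down were Ier3 (-1.66), Ddr1 (-0.92), Pfdn6 (-0.80) and Wdr46 (-0.79). Against C2C12, 0 of 10 other heavy chains, 0 of 16 regulators and 0 of 5 class II genes passed in KO-labelled samples. H2-DMb1 and H2-DMb2 were not above background on any array of either group, so no difference could be measured for them. Of 6 class I related molecules 1 passed, Procr, which was 2.60 higher in KO-labelled samples (adjusted p = 0.0482, and 0.138 with the slide as a block). In WT-labelled samples 6 of 10 heavy chains, 4 of 16 regulators (among them Irf9, Irf7 and Stat2) and 4 of 5 class II genes passed. All of these were higher, beside 13.8% of all genes. Irf7, H2-DMb1, H2-DMb2 and H2-Ab1 entered this fit only with the WT-labelled arrays.

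Markers of other cell types also differed between the genotypes, and their part in the class I values was not tested. The 6 myoblast markers all rose in KO-labelled samples, and all 6 entered the test only through the KO-labelled arrays. Myog, Myf5 and Cdh15 were above background on 0 of 3 WT-labelled arrays, and Myod1, Des and Chrna1 on 1 of 3. With the slide as a block 5 of the 6 passed. The summed signal of the 6 (in units of the array's 75th percentile) was 46.4 to 149 in KO-labelled, 0.0999 to 0.146 in WT-labelled and 70.5 to 152 in C2C12 samples. Of 15 leukocyte markers 8 were seen above background on at least 1 array in each genotype, and the sum was 1.57 to 2.29 in KO-labelled and 1.99 to 3.87 in WT-labelled samples. Ptprc, Itgam, Adgre1, Fcgr1, C1qa and Tyrobp were not above background on any array. However, Lyz2, which entered the test only through the WT-labelled arrays, was at least 44.9-fold lower in KO-labelled samples. C1qb differed by -0.68 (adjusted p = 0.0202). With the slide as a block Lyz2 passed and C1qb did not (adjusted p = 0.0108 and 0.883). The endothelial sum was 0.474 to 0.715 in KO-labelled and 1.13 to 3.24 in WT-labelled samples, with Pecam1, Cdh5, Kdr, Tie1 and Emcn not above background on any array. Most of that sum was Egfl7. Of the 8 endothelial markers 2 were tested and both fell, Egfl7 by 1.87 (adjusted p = 0.0212) and Erg, at least 3.36-fold lower. Erg entered the test only through the WT-labelled arrays. With the slide as a block 0 of the 2 passed. Of the 9 pericyte and mesoangioblast markers 6 were tested, of which 4 rose (Anpep by 6.69, Angpt1 by 3.20, Notch3 by 2.79 and Pdgfrb by 1.3) and 0 fell. Their sum was 27.8 to 31.4 in KO-labelled and 9.72 to 14.5 in WT-labelled samples, and Alpl and Abcc9 were not above background on any array. Anpep was above it on 1 of 3 WT-labelled arrays, so it entered the test only through the KO-labelled arrays. With the slide as a block 2 of the 6 passed, Anpep and Angpt1, both higher. The fibroblast sum overlapped, at 132 to 141 in KO-labelled and 86.2 to 166 in WT-labelled samples. All 5 markers tested passed, but with the slide as a block 1 of the 5 did (Thy1). The collagens Col3a1 and Col1a1 rose by 2.02 and 0.77, Dcn and Pdgfra differed by -4.16 and -4.11, and Thy1, which entered the test only through the WT-labelled arrays, was at least 1293-fold lower. Of the 6 cardiomyocyte markers 4 were tested, of which 1 rose and 1 fell. Tnni3, which entered the test only through the KO-labelled arrays, rose by 1.3 (adjusted p = 0.0332). Nppa, which entered it only through the WT-labelled arrays, differed by -2.22 (adjusted p = 0.000366). With the slide as a block Nppa passed and Tnni3 did not (adjusted p = 0.0281 and 0.69). The cardiomyocyte sum overlapped, at 0.242 to 2.83 in KO-labelled and 0.216 to 0.268 in WT-labelled samples. Ryr2 was not above background on any array.

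Genes with the most similar pattern were sought over the 8 samples among 12139 genes above background on every array. The pattern was the mean of the centred values of the 6 members above background throughout, at -0.11, -0.31 and -0.60 in KO-labelled ventricle, aorta and atrium, 0.90, 0.22 and 0.61 in their WT-labelled counterparts (atrium, ventricle, aorta), and -0.64 and -0.05 in the C2C12 samples. Members correlated with it at 0.773 (Tapbp) to 0.931 (B2m), except H2-D1 at -0.603. The 5 genes with the highest correlation were Ubap1 (0.984), Sez6l2 (0.981), Parp14 (0.976), Crot (0.974) and Ddx58 (0.974). Ddx58, the RNA sensor RIG-I, read -2.87, -3.03 and -3.43 in KO-labelled ventricle, aorta and atrium, 0.10, -1.35 and -0.51 in the WT-labelled samples in the order above, and -3.51 and -2.83 in C2C12 samples. The samples fall into groups, so these values describe likeness and test nothing.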

How the data were processed

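RNA of 11 samples was measured on Agilent 1-colour arrays of 45018 spots. The deposited scanner files hold spot intensity values and flags, and the submitters' processing notes name Agilent Feature Extraction, version 9.5.3.1. The authors' processed signal is background-subtracted and spatially detrended, per the file headers, with probe positions on mm8. The authors' deposited log2 table was an alternative. Control spots (1639) and marked spots (39 to 120 per array) were left out, 0 were saturated, and 49.0 to 62.0% of probes were well above background. The processed signal was divided by each array's 75th percentile (960.58 to 1145.5) and log2 was taken. Near-identical arrays were averaged, which left 8 samples. Probes well above background on at least 3 fitted arrays were kept, with the brightest per gene, and tested with limma 3.58.1 (R 4.3.3) and Benjamini-Hochberg adjustment over all genes, at 0.05, without a block. The number of arrays limits the precision. Probe names were updated through a RefSeq table. Scripts were tested on simulated data. Alternatives were median, quantile and normexp (offset 50) scaling, the deposited table, filters, every array as a sample, the slide or the region as a block, the mean of all probes, 1 fit of all samples and each sample left out.

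The members, lists and tests were chosen with earlier results of these data known. Named genes were all members with every probe, the called genes with the largest differences in each list (at most 4), Nlrc5, Irf1, Psmb5, Psmb6, Psmb7, Psme1 and Psme2, and the 5 genes most like the members. Other genes were named after their values were seen. 1 gene of the naming rule is not reported here.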

Additional observations from a re-analysis of the deposited data

Results flagged for a closer look

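Probes of both heavy chains moved in opposite directions in different heart regions, with 1 sample per region and genotype, and the difference between regions was not tested. KO minus WT for H2-K1 probe 3 was 0.64 in ventricle, -0.13 in aorta and -0.73 in atrium. For H2-D1 probe 2 it was 0.95 in ventricle, -0.08 in aorta and -1.10 in atrium. Both are the probes whose groups overlapped, and in both the KO-labelled ventricle was the highest KO-labelled sample while the WT-labelled ventricle was the lowest WT-labelled one.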

How the results depend on the processing

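Under the alternatives run, KO minus WT of Tap1 and Psmb9 passed in all 13 in which they were tested, B2m and Tap2 in 16 of 17 (lost with the slide as a block), and H2-K1 and H2-D1 in 15 of 17 (also lost with the mean of all probes). The number of genes called was 4468, and it was 2793 with normexp background and 891 with the slide as a block, where 2 members passed. With every probe, the block gave 1261 probes and 3 member probes, against 6586 and 10. KO minus C2C12 called 198 genes and 2 members, and 45 and 0 with normexp, 1628 and 5 with every array as a sample, 27 and 0 with the slide as a block, 99 and 1 without a filter on dim probes, and 60 and 0 with probes above background on every array. With every probe it called 2408 probes and 9 member probes with every array as a sample and 14 and 0 with the block, against 241 and 3. WT minus C2C12 called 4265 genes, and 2499 with normexp, 6665 with every array as a sample and 2286 with the block, while 3 members passed with probes above background on every array, which tests fewer genes. With every probe it called 6339, and 10046 with every array and 3303 with the block. With every array as a sample, 50, 65 and 72 genes passed for atrium minus ventricle, atrium minus aorta and ventricle minus aorta, against 0 in each. Leaving out 1 sample at a time gave 2645 to 5874 genes and 4 to 6 members for KO minus WT, 13 to 130 and 0 to 3 for KO minus C2C12, and 2278 to 5622 and 4 to 6 for WT minus C2C12. The KO minus WT count fell most without the WT-labelled aorta (2645), KO-labelled atrium (2744), WT-labelled ventricle (2814) or KO-labelled aorta (2944). Tap1 and Psmb9, above background on 3 heart arrays, leave the test when a WT-labelled sample is left out. The KO minus C2C12 count was 13 or 18 without either C2C12 sample, and 67 without the KO-labelled atrium. The WT minus C2C12 count was 2278 or 2366 without either C2C12 sample. Other causes were not tested.

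Directions turned only among differences that passed in neither setting. KO minus WT turned with the slide as a block for Tapbp (0.40 by probe 1 and 0.39 by probe 2), H2-K1 probe 3 (0.41) and H2-D1 probe 2 (0.47), and with every array as a sample for those 2 probes (0.03 and 0.02). KO minus C2C12 of B2m, at 0.00, was 0.05 with median scaling, 0.00 with quantile normalization, 0.03 with every array as a sample, 0.09 with the block, 0.10 with the mean of all probes, 0.01 without the KO-labelled aorta, and 0.09 or -0.09 without C2C12 on slide 2 or on slides 1 and 3. By probe, B2m gave 0.03 for probes 1 and 2 with every array, and 0.09, 0.07 and -0.47 for probes 1, 2 and 3 with the block. Tapbp against C2C12 turned with the block to 0.05 and 0.17 (KO-labelled, probes 1 and 2) and -0.35 and -0.22 (WT-labelled), and to 0.05 for KO-labelled samples without C2C12 on slide 2 (-1.02 to 0.05 over the samples left out), and for WT-labelled samples to -0.35 without C2C12 on slides 1 and 3 (-0.35 to 0.72) and to -0.04 without the WT-labelled atrium. With median scaling, Tap1 turned to 0.11 for atrium minus ventricle and Psmb10 to 0.12 for atrium minus aorta. Median scaling moved the median KO minus WT of all genes to 0.05, against -0.06. Normexp moved the higher share of calls in KO minus C2C12 to 68.9%, against 53.0%. With the heart region as a block, which pairs each KO-labelled sample with the WT-labelled sample of its region, 3652 genes and 6 members passed for KO minus WT. Signal over background limits Psmb8 in heart samples, and Tap1 and Psmb9 in KO-labelled samples, to bounds.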
